A study of Mus musculus with 45 samples.

Results

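The 32 genes described here are transcripts known from macrophages, read across cultures in which mouse splenic B2 cells, the conventional B cells, were turned into plasma cells. They were picked by symbol from the 28196 genes of the deposited tables because most of them climbed late in the wild type cultures, so their values at days 4, 7 and 10 of the wild type TLR and BCR cultures chose them and are given below as a description, with no test. All 32 were found in both tables, and all 32 passed the filter on low values in each. Of them, 13 mark macrophages most closely and are called the defining members: Lyz2, Adgre1, Csf1r, C1qa, C1qb, C1qc, Mrc1, Trem2, Msr1, Marco, Mmp12, Ms4a7 and Gpnmb.

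The cultures were sampled by RNA sequencing in 45 libraries, 3 in each of 15 groups, all from C57BL/6 mice. The dEx1A groups, from mice with the Prdm1 delta ex1A genotype, were taken at days 4 and 7 of the LPS, TLR and BCR cultures, all from 9-week-old females, and the sources used here do not say which cells carry that deletion. Prdm1 encodes Blimp-1, a regulator of plasma cell differentiation. The wild type groups were the LPS culture at days 4 and 7, also from 9-week-old females, the TLR and BCR cultures at days 4, 7 and 10, from 7-week-old males, and freshly isolated B2 cells at day 0, from 7-week-old males. Enrichment of B2 cells went through a density gradient spin and a kit that sorts on CD43, a surface protein that resting B2 cells lack and many other spleen cells carry. The TLR culture held irradiated L cells, a mouse fibroblast line, expressing CD40L, together with LPS, IL-4 and IL-5. In the BCR culture F(ab')2 antibody against IgM and IgG took the place of LPS. Feeder cells were taken away at day 2, and IL-6, APRIL, amino acids and lipids were present from day 4. The LPS culture is known here only by its label. Whether the 3 libraries of a group stem from different mice is not stated, so p-values measure the spread between these libraries, which may be technical.

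Macrophages are tissue phagocytes that depend on signals through the CSF1 receptor and take up dying cells, aged red cells and microbes. In the spleen, red pulp macrophages recycle iron from red cells and marginal zone macrophages catch blood-borne particles, while macrophages that digest much lipid and cell debris make Gpnmb, Spp1, Lgals3 and Mmp12. The 32 members fall into 7 roles. Csf1r, the CSF1 receptor, Adgre1, the F4/80 antigen, Itgam, the CD11b integrin chain, Cd14, an LPS co-receptor, Ms4a7, Aif1, a calcium-binding actin partner, and Mpeg1, a pore-forming protein of phagosomes, are receptors and surface or identity markers. Fcer1g and Tyrobp, adaptors with an activating tyrosine motif, Fcgr3 and Clec7a, receptors for IgG and for beta-glucan, and Trem2, a lipid-sensing receptor, belong to that signalling route. Msr1, Marco, Mrc1, Cd68 and Lgals3 are scavenger receptors or lectins, and C1qa, C1qb and C1qc encode the 3 chains of complement C1q. Lyz2 is the lysozyme of myeloid cells, Ctsb, Ctsd, Ctsl and Ctsz are lysosomal proteases, Cst3 is a protease inhibitor and Mmp12 is the macrophage elastase. Spp1, Ccl6 and Ccl9 are osteopontin and chemokines, Hmox1 breaks down haem and Gpnmb is a glycoprotein of loaded lysosomes. Neutrophils are known to make Lyz2, Itgam, Fcer1g, Tyrobp, Fcgr3, Clec7a and Cd14 as well. Most cells make the cathepsins and Cst3, and B cells make several members too.

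Depth, in M (10 to the power of 6) assigned reads, was 15.17 to 35.62 per library (median 23.24). Libraries of dEx1A cultures at day 7 were shallower, at 15.2 to 19.5 M, than those at day 4, at 23.2 to 30.1 M, so depth and day cannot be told apart there. The B-cell label fitted its markers at day 0, where Ms4a1, which encodes CD20, was 15.12, 15.25 and 15.07 in the deposited units. These units are log2 values on a variance-stabilised scale, on which 3.04 stands for no read, and all values below are levels or differences on it unless another scale is named. Several libraries stood apart in the members. Among the 3 wild type BCR day 10 libraries, replicate 3 was lowest for 32 of 32 members (41.1% of all genes), and replicates 1 and 2 held many neutrophil reads. In wild type TLR day 10 replicate 2 was highest for 30 of 32 (26.2% of genes), and in dEx1A BCR day 7 replicate 3 was highest for 29 of 32 (30.2%) and replicate 2 lowest for 31 of 32 (32.2%). Results that rest on these libraries are given per library.

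**Figure D1:**
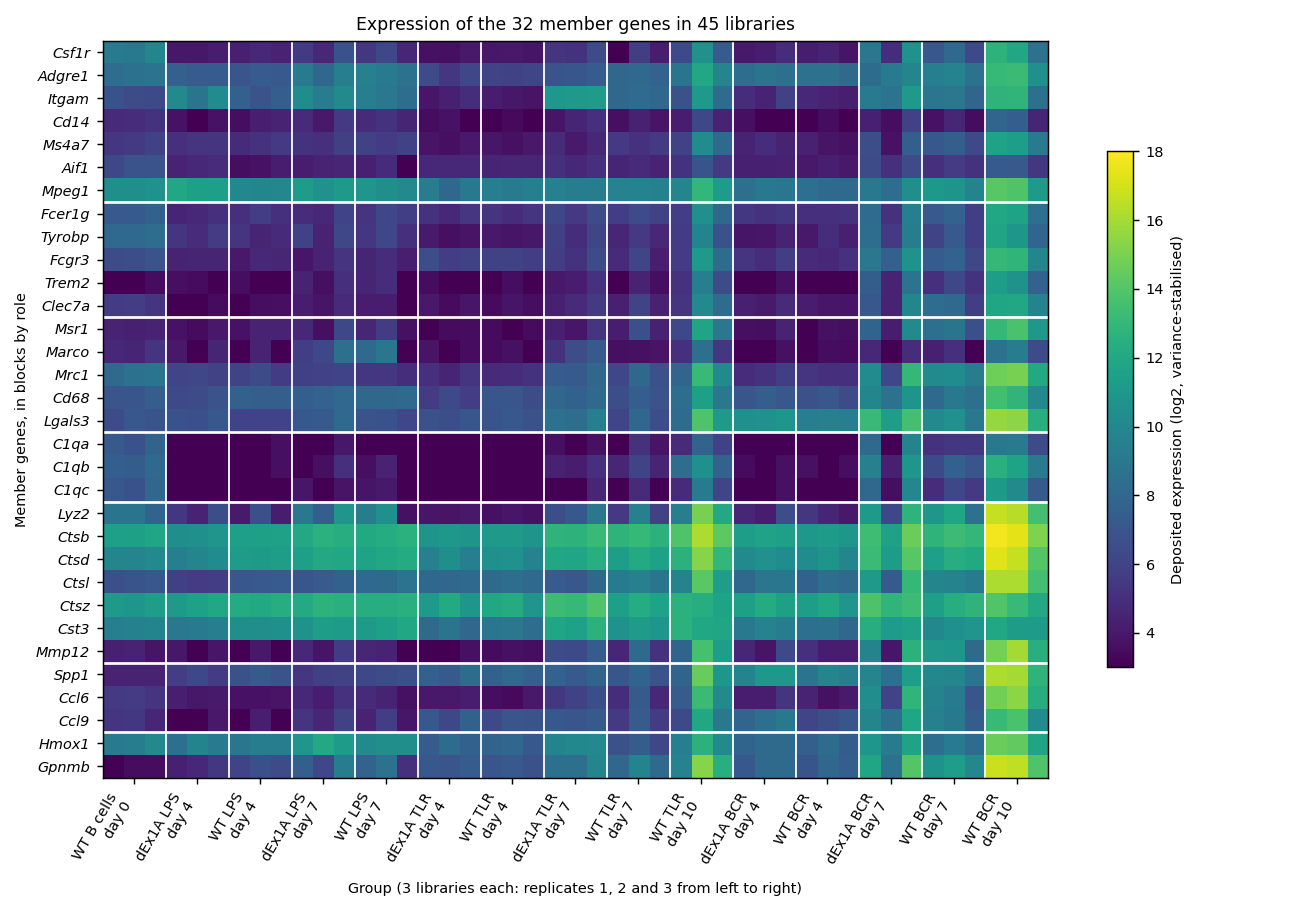
Level of each of the 32 members (rows, in 7 blocks by role) in each of the 45 libraries (columns, 3 per group), as colour on the deposited log2 scale, where 3.04 stands for no read. The brightest columns are wild type BCR day 10 replicates 1 and 2, where Gpnmb was 16.79 and 16.57, and the C1q block is darkest at day 4.

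Promoter letters are shown for the 3 members whose RefSeq promoter window (GRCm38.p6, 250 bases before to 50 after the start) holds GAGGAAGT, a site type bound by the myeloid ETS factor PU.1. The capitals mark that site, which is written as ACTTCCTC where it lies on the opposite strand. The windows are chr4:136892865-136893164 (minus strand) for C1qc, chr9:7344147-7344446 (plus strand) for Mmp12 and chr5:104434861-104435160 (plus strand) for Spp1.
C1qc: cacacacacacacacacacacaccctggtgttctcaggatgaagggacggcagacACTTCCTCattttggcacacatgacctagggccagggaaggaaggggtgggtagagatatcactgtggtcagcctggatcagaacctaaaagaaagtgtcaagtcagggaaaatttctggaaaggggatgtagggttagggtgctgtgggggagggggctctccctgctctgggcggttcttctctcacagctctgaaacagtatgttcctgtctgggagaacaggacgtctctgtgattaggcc
Mmp12: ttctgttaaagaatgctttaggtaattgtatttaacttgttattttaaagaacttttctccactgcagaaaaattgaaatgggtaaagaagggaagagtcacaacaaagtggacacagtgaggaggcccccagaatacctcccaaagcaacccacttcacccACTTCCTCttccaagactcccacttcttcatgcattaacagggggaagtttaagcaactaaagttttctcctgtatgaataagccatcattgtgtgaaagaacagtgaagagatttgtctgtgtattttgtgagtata
Spp1: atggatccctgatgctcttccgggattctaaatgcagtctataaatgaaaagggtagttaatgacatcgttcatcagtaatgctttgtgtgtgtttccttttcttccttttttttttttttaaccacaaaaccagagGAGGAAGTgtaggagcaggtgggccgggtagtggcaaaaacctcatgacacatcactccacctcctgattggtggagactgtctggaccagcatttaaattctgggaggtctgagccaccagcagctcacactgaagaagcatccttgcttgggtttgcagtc

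Windows were found for 24 of the 32 members, 29 windows in all, and none for Adgre1, C1qa, Cd14, Csf1r, Ctsb, Hmox1, Msr1 and Tyrobp. On either strand GAGGAAGT stood in 3 of the 29 windows, against 3.20% of all 32851 windows of the same length. TCACGTGA, the E-box type of the lysosomal factors TFEB and MITF, stood in 1 window, that of Ctsd, against 0.974% of all windows. These are matches of letters in short windows and say nothing of whether a factor binds there.

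At day 0 the B2 preparations carried a small but clear set of macrophage transcripts. The members made up 0.0712%, 0.0707% and 0.0912% of assigned reads, and the defining members 0.0126% to 0.0170%. Csf1r had 643 to 1218 reads per library, C1qb had 194 to 355 and Lyz2 had 280 to 602. Gpnmb and Trem2 were nearly missing, with 0 to 1 read of each in the 3 libraries. Set per kb of transcript, Ctsz led the members at day 0 with 1521 normalised reads per kb, ahead of Cst3 with 609 and Ctsb with 508. Genes of splenic red pulp and marginal zone macrophages were present too, with 2064 to 3387 normalised reads over the 10 genes of that list. Fewer macrophages and less RNA per macrophage cannot be told apart in such bulk libraries, here or below.

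By day 4 of all 3 cultures the Csf1r and C1q transcripts of the day 0 preparations were almost gone, while Gpnmb was higher in each. Over the 18 day 4 libraries of both genotypes, C1qa and C1qc had no read in 17 and C1qb had none in 13, with at most 2 reads of any of them in a library. Csf1r had 2 to 21 reads (median 6) and Lyz2 3 to 126 (median 8). The opposite was seen for Gpnmb, with 10 to 478 reads (median 172), and for Spp1, with 55 to 3447 reads, against 10 to 12 reads of Spp1 at day 0. A count of 0 allows up to 3 reads, and this and the intervals cover counting error only.

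The day 4 libraries of the wild type TLR and BCR cultures are the low end of the climb that chose the members, so their comparison with day 0 is a description, with no test of a member. In the wild type TLR culture all 3 day 4 libraries lay below all 3 day 0 libraries for 23 of 32 members and above them for 4, as for 31.5% and 32.4% of 19497 genes. The median difference of the members was -1.61, against 0.01 for all genes. Csf1r was 3.95, 4.05 and 3.87 at day 4, against 9.13, 9.08 and 9.86 at day 0, a difference of -5.40. C1qb, at 3.04 in all 3 day 4 libraries, was 7.51, 7.45 and 8.14 at day 0. Against the 3 reads that a count of 0 allows over the group, C1qb was at least 361-fold lower at day 4, C1qc at least 269-fold and C1qa at least 260-fold. Lyz2 was 3.69, 3.92 and 3.69 at day 4 and 8.85, 8.81 and 7.82 at day 0, a difference of -4.73. The difference was -4.27 for Tyrobp, -3.58 for Mrc1, -2.55 for Adgre1 and -2.05 for Aif1, without overlap in any of these. Spp1, at a difference of 3.35, and Gpnmb, at 3.63, were higher in every day 4 library. All 7 identity members and all 3 C1q chains lay wholly lower, but 4 of 7 in the lysozyme and protease group.

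In the wild type BCR culture, set against the same day 0 libraries and likewise described without a test, 21 members lay wholly lower at day 4 and 5 wholly higher, as for 31.6% and 31.8% of genes. Csf1r was 4.18, 4.44 and 3.87 at day 4, a difference of -5.19 from day 0. C1qb was 3.66, 3.04 and 3.57, a difference of -4.28, and C1qa and C1qc had no read, at least 211-fold and 219-fold lower than at day 0. Mpeg1 was 8.48, 8.14 and 8.13 at day 4, against 10.48, 10.46 and 10.62 at day 0. Spp1 went the other way, at 8.76, 9.80 and 9.39 in day 4 libraries and 4.43, 4.42 and 4.49 in day 0 libraries, a difference of 4.87. Gpnmb differed by 4.11, and Lgals3, galectin-3, was 9.40, 9.52 and 9.47 at day 4 and 6.51, 7.07 and 6.88 at day 0. The remaining members wholly higher at day 4 were Ccl9 and Ctsl.

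The LPS culture took no part in the choice of members, and its day 4 was tested. It also had almost no Csf1r or C1q transcripts, while 3 of 7 members of the lysozyme and protease group rose. There 13 members fell and 5 rose (limma, Benjamini-Hochberg adjusted p below 0.05, the threshold of every call), where 30.8% of 20331 genes fell and 27.3% rose. Sex and age differ between its libraries and those of day 0 and cannot be told apart from day. Csf1r was 4.29, 4.69 and 4.45 at day 4, 4.88 log2 units under day 0, with a difference of -4.88 ± 0.79 (SE; limma adjusted p = 3.79e-06). C1qb had a read in 1 of the 3 libraries and fell by 4.48 ± 0.83 (SE; limma adjusted p = 3.13e-05), and C1qc, with none, was at least 142-fold lower. In this culture Ctsd rose by 1.31 and Ctsz by 1.15. Spp1 was 6.70, 7.26 and 6.81, a rise of 2.48 ± 0.45 (SE; limma adjusted p = 2.28e-05), and Gpnmb was 6.05, 6.64 and 6.44, against 3.04, 3.50 and 3.48 at day 0, a rise of 3.04 ± 0.85 (SE; limma adjusted p = 0.00293). Csf1r, C1qa, C1qb, C1qc, Lyz2, Tyrobp, Mrc1, Aif1 and Adgre1 were among the members that fell.

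Markers of other cell types moved with day 4. Their lists were drawn up with earlier results of these data known, so the limma calls below describe them and are no independent test. By limma 23.5% of all genes fell and 24.9% rose in the TLR culture and 24.5% fell and 26.1% rose in the BCR culture. Of 10 splenic macrophage genes, 9 fell in the TLR culture, 8 in the BCR culture and 9 in the LPS culture (medians -3.80, -3.73 and -3.99). Their sum was 12 to 31 normalised reads in TLR, 95 to 152 in BCR and 2 to 5 in LPS libraries. Fibroblast genes rose in the feeder cultures, 9 of 9 tested in each, with sums over 14 genes of 1435 to 3048 normalised reads in TLR and 2414 to 4410 in BCR libraries at day 4 against 18 to 51 at day 0. In the LPS culture that sum was 5 to 12 and 0 of 10 tested genes rose. T and NK cell genes fell in 8 of 12 cases in the TLR, 3 of 12 in the BCR and 11 of 12 in the LPS culture, and genes of erythroid cells and platelets in 5, 4 and 7 of 8. Monocyte genes fell in 5 of 12, 5 of 12 and 7 of 9 tested in the TLR, BCR and LPS cultures, dendritic cell genes in 7, 7 and 6 of 12, and neutrophil genes in 0, 0 and 2 of 15. The part of these cell types in the lower members was not tested. Fibroblasts are known to make Spp1, Csf1 and cathepsins, and the part of fibroblast RNA in the rises of the feeder cultures was not tested. Csf1, the ligand of the CSF1 receptor, was 10.79, 10.84 and 10.35 in TLR, 11.55, 11.93 and 11.29 in BCR and 4.76, 4.49 and 5.18 in LPS libraries at day 4, with 7.23, 6.85 and 7.01 at day 0. Gpnmb rose in the LPS culture too, and what raised it in any of the cultures was not tested.

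**Figure D2:**
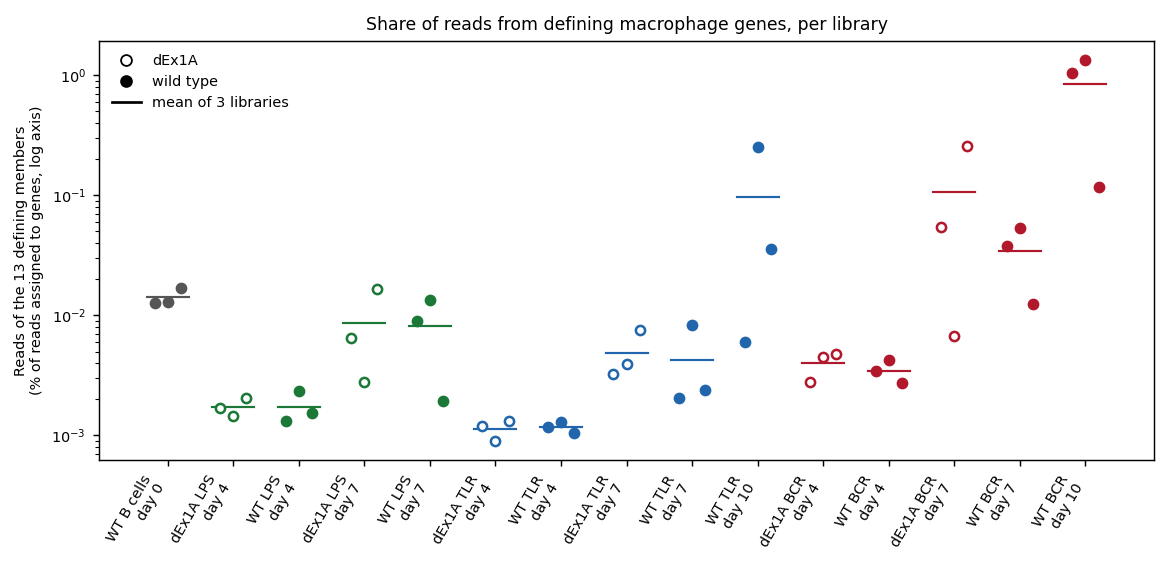
Reads of the 13 defining members as percent of all assigned reads (log axis) in each library, with open circles for dEx1A, filled circles for wild type and a line at the mean of 3 libraries. All 18 day 4 libraries lie between 0.000897% and 0.00478%, under the 0.0126% to 0.0170% of day 0, and wild type BCR day 10 reaches 1.35%.

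In the late wild type cultures the members climbed, with higher means in the BCR culture than in the TLR culture for 31 of 32 at day 10. These are the contrasts that chose the members. In the BCR culture all 3 day 7 libraries lay above all 3 day 4 libraries for 26 of 32 members, as for 21.8% of all genes, and all 3 day 10 libraries above all 3 day 7 libraries for 28 of 32, as for 13.9% of genes, with 10.1% of genes wholly lower. The median step was 2.14 and then 3.96, the second ranging between 0.84 and 5.73. In the TLR culture the counts were 19 of 32 between days 4 and 7, as for 24.0% of genes, and 17 of 32 between days 7 and 10, as for 11.4% of genes, with median steps of 0.96 and 2.83. At day 7 the BCR libraries lay above all TLR libraries for 18 of 32 members, as for 12.9% of genes. At day 10 the medians differed by 2.79 and 31 means were higher in the BCR culture, yet for 0 of 32 members did the libraries separate, where 8.75% of genes lay wholly higher in the BCR culture and 7.27% wholly lower. Against day 0, all 3 BCR day 10 libraries were higher for 26 of 32 members (30.8% of genes higher, 27.2% lower) and all 3 TLR day 10 libraries for 17 of 32 (26.6% higher, 27.3% lower), with median differences of 5.04 and 2.25.

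Among receptors, Adgre1 in the BCR culture was 8.60, 8.59 and 8.20 at day 4, 9.47, 9.72 and 8.59 at day 7 and 13.04, 13.21 and 10.55 at day 10. TLR cultures had it at 6.07, 5.92 and 6.15, then 8.05, 8.12 and 7.69, then 8.82, 11.95 and 9.80. Each BCR library at day 10 exceeded all day 7 libraries, and TLR replicate 2 alone exceeded BCR replicate 3 at day 10. Mpeg1 was 8.48, 8.14 and 8.13, then 11.01, 10.75 and 9.77, then 14.10, 13.84 and 11.19 in the BCR culture. TLR cultures had Mpeg1 at 9.44, 9.25 and 9.46, then 9.67, 9.75 and 9.57, then 9.84, 12.95 and 11.31. TLR replicate 1 at day 10 was thus close to day 7 while replicates 2 and 3 were not. Csf1r reached 12.70, 11.96 and 8.65 at day 10 of the BCR culture and 6.36, 10.57 and 7.39 of the TLR culture, so BCR replicate 3 and TLR replicates 1 and 3 were below the 9.08 to 9.86 of day 0. Itgam was 12.74, 12.82 and 8.53 at BCR day 10, and Ms4a7 11.67, 11.35 and 9.22. Cd14, at 7.87, 7.48 and 4.53, and Aif1, at 7.26, 7.17 and 5.44, stayed low, and Aif1 had its highest group mean at day 0.

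The adaptors and Fc receptors climbed from levels near the floor. Fcgr3 was 4.84, 4.70 and 5.15 at day 4 of the BCR culture, 7.34, 7.74 and 6.18 at day 7 and 13, 12.83 and 9.90 at day 10. In the TLR culture it was 5.94, 5.96 and 5.75, then 4.81, 6.16 and 4.27, then 5.62, 11.07 and 8.33, so TLR replicate 1 did not pass its day 4 level. Reads of Fcgr3 can be shared with related Fc receptor genes. Clec7a was 4.18, 3.90 and 3.87, then 8.36, 8.14 and 5.80, then 11.86, 11.95 and 9.76 in the BCR culture, without overlap between days. At day 10 Clec7a was 5.27, 10.14 and 8.29 in the TLR culture. Tyrobp reached 11.75, 10.96 and 7.88 at BCR day 10, and Fcer1g 11.98, 11.66 and 8.50. Trem2, with at most 1 read in a library at day 0, was 11.42, 10.71 and 7.74 at BCR day 10 and 5.13, 9.44 and 6.50 at TLR day 10.

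Scavenger receptors and lectins gave some of the highest levels. Mrc1 was 5.32, 5.09 and 5.00 at day 4 of the BCR culture, 10.11, 10.32 and 9.31 at day 7 and 14.70, 14.93 and 12.10 at day 10. In the TLR culture it was 4.85, 4.91 and 5.19, then 6.19, 8.07 and 6.70, then 7.91, 13.12 and 10.20. Day 7 of the BCR culture was thus above day 7 of the TLR culture in every library. Lgals3 was 9.40, 9.52 and 9.47, then 10.04, 10.57 and 9.00, then 15.62, 15.37 and 12.43 in the BCR culture. With LPS in place of the antibody, Lgals3 was 6.87, 7.08 and 6.70, then 6.13, 8.09 and 6.58, then 8.27, 13.88 and 11.12. Between days 4 and 7 the Lgals3 libraries overlapped in each culture. Msr1 reached 12.97, 13.68 and 10.98 and Cd68 13.46, 12.82 and 10.06 at BCR day 10. Marco stayed the lowest of the group, at 8.64, 9.31 and 6.41.

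C1q came back after its loss. C1qb was 6.35, 7.63 and 6.98 at day 7 and 12.54, 11.69 and 9.19 at day 10 of the BCR culture, and 4.64, 6.06 and 4.53 and then 8.44, 10.55 and 7.71 in the TLR culture. C1qc was 4.92, 6.23 and 5.47 and then 11.15, 10.17 and 7.22 in the BCR culture, and 3.04, 4.86 and 3.04 and then 4.79, 9.20 and 6.14 in the TLR culture. The day 7 and day 10 libraries of C1qc overlapped in the TLR culture and not in the BCR culture. C1qa was lower, at 9.08, 9.10 and 6.46 at BCR day 10. The 3 genes lie next to each other on chromosome 4 (GRCm38), C1qa at 136895917 to 136898803, C1qb at 136880129 to 136886187 and C1qc at 136889804 to 136893065.

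Of the cathepsins, Ctsb, Ctsd and Ctsl climbed without overlap between days in both cultures, and Ctsz overlapped at each step. Ctsl was 6.69, 6.89 and 7.09 at day 0, below the 9.83 to 11.80 of the other 3. Ctsb was 10.99, 11.25 and 10.92 at day 4 of the BCR culture, 12.77, 13.31 and 12.91 at day 7 and 17.74, 17.38 and 15.11 at day 10. In the TLR culture it was 11.08, 11.05 and 10.77, then 12.74, 13.02 and 12.65, then 13.89, 16.15 and 14.23. Ctsd was 10.27, 10.78 and 9.82, then 11.44, 12.37 and 12.12, then 17.25, 16.71 and 13.99 in the BCR culture. Ctsd in the TLR culture ended at 12.65, 15.29 and 12.93. Ctsl reached 16.18, 16.16 and 13.53 at BCR day 10 and Mmp12 14.88, 15.95 and 12.49. Cst3 and Ctsz behaved differently. Cst3 was 11.96, 11.26 and 11.25 at BCR day 10 and 12.63, 12.01 and 11.86 at TLR day 10, and its highest group mean was in the TLR culture. Ctsz was 13.91, 13.11 and 12.07 at BCR day 10 and had its highest mean in dEx1A TLR day 7, at 13.27, 13.05 and 13.88. Set per kb of transcript, for the 29 members with a length, Lyz2 led in each BCR day 10 library, with 78675, 65244 and 8791 normalised reads per kb, and Ctsd came next with 66293, 45593 and 6914. Spp1 had 45041, 39757 and 4112 and Ctsb 36175, 28186 and 5842, so Spp1 was ahead of Ctsb in replicates 1 and 2 and behind it in replicate 3. Reads of Lyz2 can be shared with its neighbour Lyz1.

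Among secreted members and those of lipid and haem handling, Spp1 was 8.76, 9.80 and 9.39 at day 4 of the BCR culture, 9.96, 9.86 and 8.71 at day 7 and 16.18, 16 and 12.73 at day 10. Spp1 in the TLR culture was 7.68, 8.10 and 7.61, then 7.00, 7.86 and 6.92, then 7.86, 14.51 and 10.89. Spp1 thus did not separate days 4 and 7, and TLR replicate 1 was at its day 4 level on day 10. Ccl6 was 4.50, 3.66 and 4.08, then 9.73, 9.10 and 6.93, then 14.78, 15.41 and 12.35 in the BCR culture, and ended at 7.35, 13.22 and 10.19 in the TLR culture. Ccl9 reached 13.10, 13.71 and 10.24 at BCR day 10. Reads may be shared between these related chemokines. Gpnmb was 6.88, 8.01 and 7.46, then 10.63, 11.38 and 9.95, then 16.79, 16.57 and 13.87 in the BCR culture and ended at 9.63, 15.27 and 12.46 in the TLR culture. Its difference from day 0, 12.40 at BCR day 10, was the widest of the 32. Hmox1 was 7.57, 8.31 and 7.43, then 8.41, 9.15 and 8.23, then 14.57, 14.31 and 11.75 in the BCR culture. Hmox1 in the TLR culture was 9.48, 12.64 and 10.18 at day 10, and replicates 1 and 3 lay near the 9.17 to 10.06 of day 0.

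As a share of all assigned reads the members reached 3.45%, 3.89% and 0.392% at BCR day 10 (95% Wilson interval 3.88% to 3.89% for replicate 2) and 0.0847%, 0.768% and 0.143% at TLR day 10 (0.0836% to 0.0858% for replicate 1). By this measure TLR replicate 1 at day 10 was within the 0.0707% to 0.0912% of day 0. Ctsb, Ctsd, Ctsz and Cst3 were 83.8% of its member reads, against 54.9% to 56.5% at day 0. Its defining members took 0.00604% of reads, against 0.0126% to 0.0170% at day 0. In normalised reads they summed to 2892, against 2050 to 2751 at day 0. Immunoglobulin genes took 58.7% to 66.5% of reads at TLR day 10. Without them the member share of replicate 1 was 0.253%, above the 0.0721% to 0.0931% of day 0. The mean of the 3 TLR day 10 libraries was then 0.824% in place of 0.332%. For 29 of 32 members the highest group mean was at BCR day 10, the exceptions being Aif1, Cst3 and Ctsz. The highest single library was BCR day 10 replicate 1 for 21 members and replicate 2 for 9, with Cst3 highest in TLR day 10 replicate 1 and C1qa in dEx1A BCR day 7 replicate 3. The mean of replicates 1 and 2 exceeded replicate 3 at BCR day 10 by a median of 2.87, with Cst3 at 0.36 and Itgam at 4.25. At TLR day 10 replicate 2 exceeded the mean of the other libraries by a median of 3.58, with Cst3 at -0.24 and Spp1 at 5.14.

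The make-up of the defining reads differed between day 0 and late cultures. The wild type day 10 libraries entered the choice of members, which favours genes that climb late, so this is a description with no test. Csf1r, Adgre1, Mrc1 and C1q together were 15.5% to 37.5% of the defining reads in the 6 wild type day 10 libraries, against 75.6% to 89.4% in the 3 day 0 libraries. Lyz2 and Gpnmb were 50.3% to 69.6% at day 10, against 7.65% to 21.7% at day 0, and Gpnmb alone 26.8% to 37.4%, against 0% to 0.0383%. Csf1r was 0.915% to 2.30% at day 10, against 24.6% to 33.2% at day 0. These ranges do not overlap. The C1q chains were 1.58% to 12.4% at day 10, against 16.2% to 25.2% at day 0, and the highest of the late values was TLR replicate 1, the library with the fewest defining reads at day 10. Lyz2 was 23.4% to 33.2% of these reads in all 6 late wild type libraries although their totals differed. Neutrophils make Lyz2 as well, and their part in these reads was not tested. At day 4 Adgre1 was 17.5% to 66.5% and C1q at most 0.837% of the defining reads.

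**Figure D3:**
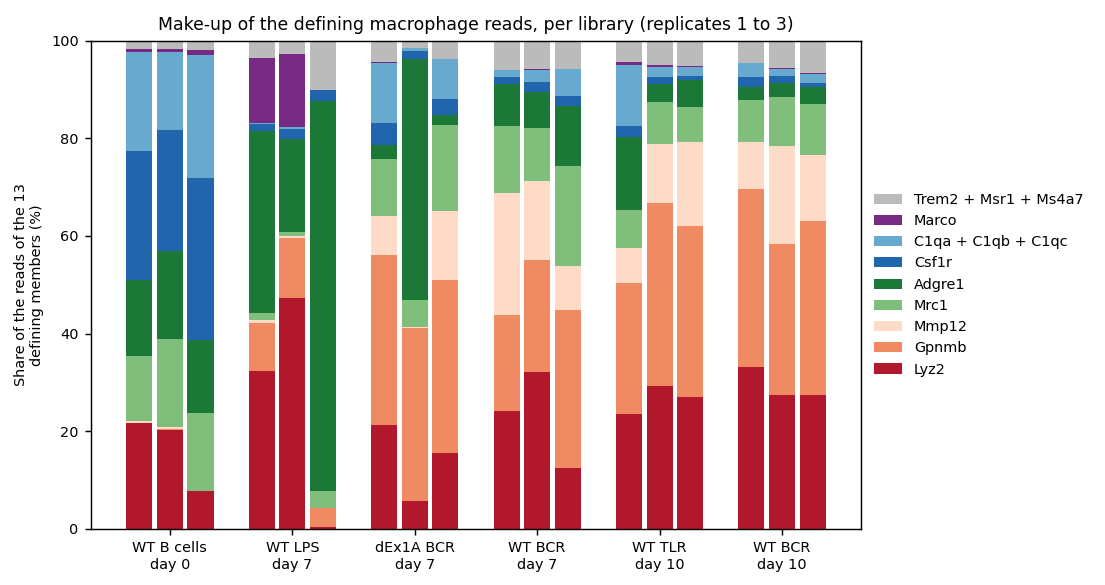
Share of each gene in the reads of the 13 defining members (percent of those reads, stacked to 100), one bar per library, replicates 1 to 3 from left to right in each of 6 groups. Blue (Csf1r and C1q) and green (Adgre1 and Mrc1) fill most of the day 0 bars, 75.6% to 89.4%, and red and orange (Lyz2 and Gpnmb) fill 50.3% to 69.6% of the day 10 bars.

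Neutrophil genes moved with the members in some libraries and not in others. The 16 neutrophil genes summed to 90593, 77963 and 247 normalised reads at BCR day 10, to 147, 3780 and 211 at TLR day 10 and to 327, 45 and 43 at day 0. All 16 had over 3 reads in BCR day 10 replicates 1 and 2, while in replicate 3 only 4 of 16 had over 3 reads and 4 had none. S100a9, an abundant neutrophil protein, was 14.52, 14.58 and 3.63 at BCR day 10. In BCR day 10 replicate 3 S100a9 was near the floor, the members took 0.392% of reads, Lyz2 was 13.50, Mrc1 12.10 and Gpnmb 13.87. That library was also the lowest of its group for 32 of 32 members. In TLR replicate 3 S100a9 was 3.78 and Gpnmb 12.46. The part of neutrophil RNA in the members of BCR replicates 1 and 2, or of any other library, was not tested. T and NK cell genes summed to 498 to 3279 normalised reads at BCR day 10, against 222 to 557 at day 0.

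Genes of resident splenic macrophages were split at day 10. Their sum was 15184, 16004 and 3831 normalised reads at BCR day 10 and 67, 5097 and 766 at TLR day 10, against 2064 to 3387 at day 0. Slc40a1, the iron exporter ferroportin, was 12.69, 13.23 and 10.86 at BCR day 10, against 9.49, 9.84 and 10.16 at day 0, and Cd5l was 12.87, 12.34 and 10.82, against 7.39, 7.39 and 7.74. Of the 10 genes, 8, 7 and 7 had over 3 reads in the BCR day 10 libraries, against 9, 10 and 9 at day 0. Some genes of the list did not regain their day 0 level. C6, Hpgd and Timd4 were chosen for naming after their values were seen. C6 was 3.57, 3.54 and 3.04 at BCR day 10, against 6.51, 6.55 and 7.07 at day 0. Hpgd was 4.09, 3.54 and 3.04 at BCR day 10, against 7.33, 7.74 and 7.66 at day 0. Timd4, a receptor for dying cells, was at 3.04 in every library of days 7 and 10 and 5.14, 5.19 and 5.05 at day 0. Vcam1 was 7.30, 8.40 and 6.58 at BCR day 10, below the 9.52, 9.79 and 10.37 of day 0.

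**Figure D4:**
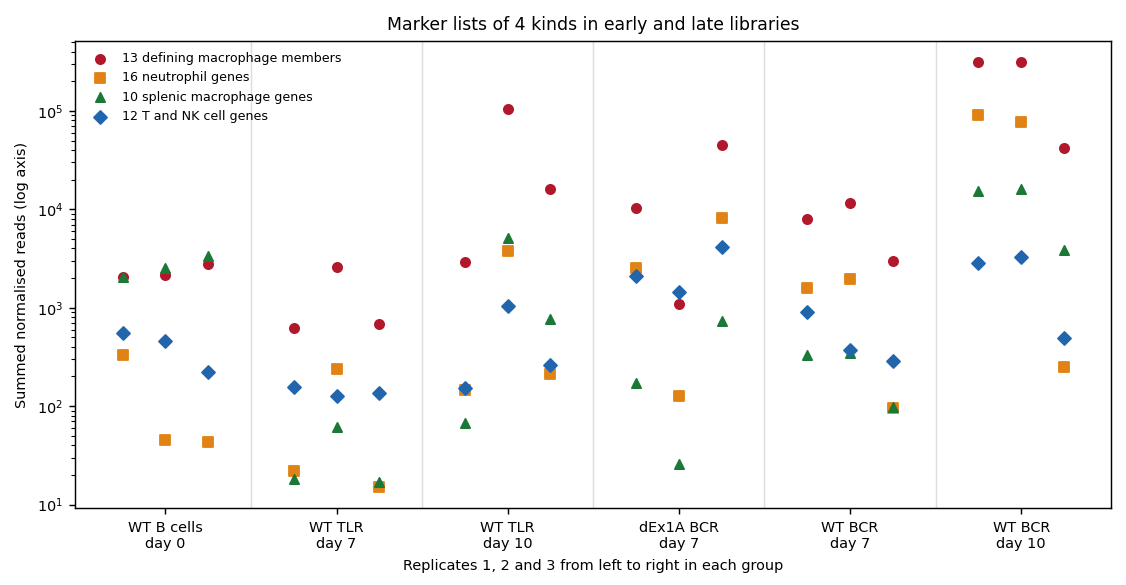
Summed normalised reads (log axis) of 4 gene lists in each library of 6 groups, replicates 1 to 3 from left to right: defining members (circles), neutrophil genes (squares), splenic macrophage genes (triangles) and T and NK cell genes (diamonds). At BCR day 10 the neutrophil sum is 90593 and 77963 in replicates 1 and 2 and 247 in replicate 3.

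The steps between days 4 and 7 outside the wild type TLR and BCR cultures did not enter the choice of members and were tested. In the wild type LPS culture 4 of 32 members rose and 0 fell, where 4.75% of 20331 genes rose and 3.65% fell (limma). The median step was 0.66, against 0.00 for all genes. Adgre1 was 9.53, 9.21 and 8.65 at day 7 and 6.95, 7.33 and 7.17 at day 4, a rise of 1.98 ± 0.33 (SE; limma adjusted p = 0.000191). Itgam, at 9.50, 8.93 and 8.34 on day 7 and 7.60, 6.83 and 7.52 on day 4, rose by 1.61 ± 0.45 (SE; limma adjusted p = 0.0206). Neither overlapped between days. Cst3 rose by 1.02 ± 0.28 (adjusted p = 0.0175). Marco was 8.10, 8.87 and 3.04 at day 7 and 3.04, 4.41 and 3.04 at day 4, a difference of 3.17 ± 0.87 (SE; limma adjusted p = 0.0191) with overlapping libraries. The count was 2 without replicate 1 or replicate 2 of either day, and Adgre1 was called in each of those fits; voom called 2 and a fit on these 6 libraries alone 7. Lyz2 was 9.33, 10.50 and 3.67 at day 7, so replicate 3 lacked both Lyz2 and Marco. The member share stayed low, at 0.0995%, 0.107% and 0.0998%.

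The same step was tested in each dEx1A culture. In LPS 12 of 32 rose and 0 fell, where 16.3% of genes rose and 17.8% fell. Hmox1 was 10.81, 12.05 and 11.32 at day 7 and 8.45, 9.74 and 9.25 at day 4, a rise of 2.25 ± 0.43 without overlap (SE; limma adjusted p = 0.000137). Adgre1 rose by 1.49 ± 0.33 (adjusted p = 0.000692 by limma), Ctsd by 1.97, Cst3 by 1.89, Ctsb by 1.70 and Cd68 by 1.22. Lyz2 was 8.95, 7.54 and 10.81 at day 7 and 5.36, 4.44 and 6.58 at day 4, a rise of 3.64 ± 1.37 (SE; limma adjusted p = 0.0386). Marco was 5.79, 6.24 and 8.55 at day 7 and 4.04, 3.04 and 4.53 at day 4, a rise of 2.99 ± 0.87 (SE; limma adjusted p = 0.00827). Gpnmb was 7.55, 6.19 and 9.32 at day 7 and 4.31, 4.71 and 5.42 at day 4, a rise of 2.87 ± 0.85 (SE; limma adjusted p = 0.00898). Without day 7 replicate 3 the count was 6 and Lyz2, Marco and Gpnmb were no longer called, at limma adjusted p of 0.18, 0.088 and 0.093. The proteases and inhibitor gave 5 of the 12 calls, C1q gave 0 of 3, and C1qb, with no read at day 4, had 0, 1 and 15 reads at day 7, so the bound of at least 11.3-fold higher rests on replicate 3.

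In dEx1A TLR culture 16 of 32 rose and 0 fell, where 29.3% of genes rose and 32.8% fell, with a median step of 1.67 against -0.05 for all genes. Itgam was 10.98, 11.14 and 11.26 at day 7 and 3.90, 4.34 and 4.96 at day 4, and rose by 6.73 ± 0.45 (SE; limma adjusted p = 3.09e-13). In the wild type TLR culture Itgam was 7.93, 8.27 and 8.0 at day 7, lower than in all 3 dEx1A libraries, which also differ in sex, age and depth. Cst3 was 11.89, 11.61 and 12.61 at day 7 and 8.18, 8.78 and 7.93 at day 4, a rise of 3.74 ± 0.28 (SE; limma adjusted p = 3.19e-12). Lyz2, at 6.60, 7.15 and 8.97 on day 7 and 3.90, 3.81 and 4.03 on day 4, rose by 3.66 ± 1.37 (SE; limma adjusted p = 0.0211), a call lost without day 7 replicate 3 (adjusted p = 0.1). Calls lay in the protease group (6 of 7), the scavenger group (4 of 5) and the identity group (4 of 7). The signalling group gave 1 of 5 and the haem and lipid group 1 of 2, and 0 of 3 C1q chains and 0 of 3 secreted members were called. C1qb, with no read at day 4, had 6, 4 and 13 reads at day 7, at least 15.3-fold higher. C1qc, with none at day 4, had 0, 0 and 7 reads, so its bound of at least 4.67-fold rests on replicate 3. Spp1 was 7.70, 7.20 and 7.85 at day 7 and 7.61, 7.25 and 8.32 at day 4. The defining members took 0.00322% to 0.00753% of reads at day 7, against 0.000897% to 0.00132% at day 4.

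In dEx1A BCR culture 28 of 32 rose and 0 fell, where 26.2% of genes rose and 27.7% fell, and the median step was 2.53 against -0.04 for all genes. All 3 day 7 libraries lay above all 3 day 4 libraries for 16 of the 32, as for 27.1% of genes (28.5% wholly lower), and replicate 2 was the lowest day 7 library for 31. Ccl6 was 10.34, 6.00 and 12.80 at day 7 and 4.23, 4.22 and 5.28 at day 4, a rise of 5.14 ± 0.89 (SE; limma adjusted p = 2.34e-05). C1qb was 9.56, 4.30 and 10.88 at day 7 and 3.45, 3.04 and 3.66 at day 4, a rise of 4.86 ± 0.83 (SE; limma adjusted p = 2.11e-05). Fcgr3 was 8.96, 7.67 and 10.62 at day 7 and 5.33, 4.93 and 5.76 at day 4, a rise of 3.74 ± 0.49 (SE; limma adjusted p = 4.47e-07). In these 3 genes all day 7 libraries were higher, yet replicate 2 lay far under replicates 1 and 3. Lyz2 was 11.10, 6.28 and 12.78 at day 7 and 4.59, 4.22 and 6.55 at day 4, a rise of 4.93 ± 1.37 with overlap (SE; limma adjusted p = 0.00327). C1qa had no read in the 3 day 4 libraries and was at least 542-fold higher at day 7, on 1090 reads, none of them in replicate 2. Adgre1, Mpeg1, Marco and Spp1 were not called. Spp1 was 9.85, 8.50 and 11.41 at day 7, overlapping the 9.75, 10.97 and 11.00 of day 4. A fit on these 6 libraries alone called 12 members.

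The libraries of dEx1A BCR day 7 differed in several lists at once. The members took 0.363%, 0.134% and 0.839% of reads, and the defining members 0.0543%, 0.00667% and 0.258%. Neutrophil genes summed to 2561, 128 and 8125 normalised reads, and 13 of 15 tested rose against day 4 (median 2.59). Replicate 2 had the fewest neutrophil reads and was the lowest library for 31 of 32 members, with Fcgr3 at 7.67 and Lgals3 at 11.38. The part of neutrophil RNA in the step was not tested. Replicate 3 exceeded replicate 2 by a median of 3.55 over the members, with Cst3 at 0.29 and Mmp12 at 8.75. Of the defining reads, Gpnmb was 35.0% to 35.5% in all 3 libraries, and Csf1r, Adgre1, Mrc1 and C1q 31.1% to 57.2%. In replicate 2 Adgre1 alone was 49.5%. Arg1, an enzyme of alternatively activated macrophages, was 11.05, 5.48 and 13.81. Fibroblast genes summed to 4944 to 7063 normalised reads here, against 3177 to 4180 at dEx1A BCR day 4. Yet 1 of 10 tested rose and 8 fell against day 4 (median -0.99), so few genes carry the larger sum. At wild type BCR day 7, which also differs in sex, age and depth, the sum was 441 to 553.

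Setting dEx1A BCR against dEx1A TLR at day 7, which reuses libraries of the steps above, 21 of 32 members were higher and 1 lower, where 18.3% of genes were higher and 13.2% lower (limma). Lgals3 was 13.12, 11.38 and 13.54 in the BCR culture and 8.67, 8.37 and 9.40 in the TLR culture, without overlap, a difference of 3.87 ± 0.42 (SE; limma adjusted p = 2e-08). Fcgr3 was higher by 3.30 ± 0.49 (adjusted p = 4.08e-06 by limma), with all BCR libraries above the 5.73, 5.22 and 6.41 of the TLR culture. Adgre1 was 8.28, 9.12 and 9.82 in the BCR culture and 6.91, 7.00 and 7.37 in the TLR culture, a difference of 1.98 ± 0.33 (SE; limma adjusted p = 1.96e-05). These 3 were called under every alternative. Ccl6, at 10.34, 6.00 and 12.80 in the BCR culture and 5.45, 5.93 and 6.63 in the TLR culture, differed by 3.71 ± 0.89 (SE; limma adjusted p = 0.00153), and C1qb by 3.68 ± 0.83 (adjusted p = 0.000891 by limma), in each case with replicate 2 inside or near the TLR range. Itgam was lower in the BCR culture, at 9.14, 8.72 and 11.09, against 10.98, 11.14 and 11.26 in the TLR culture with 1 library overlapping, a difference of -1.48 ± 0.45 (SE; limma adjusted p = 0.0113). BCR libraries lay above all TLR libraries for 6 of the 32, as for 20.5% of genes, a share of the members near that of all genes. Without BCR replicate 3 the count was 12 in place of 22, voom called 13 and a fit on these 6 libraries alone called 3. Neutrophil genes differed too, 10 of 15 tested being higher and 1 lower.

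**Figure D5:**
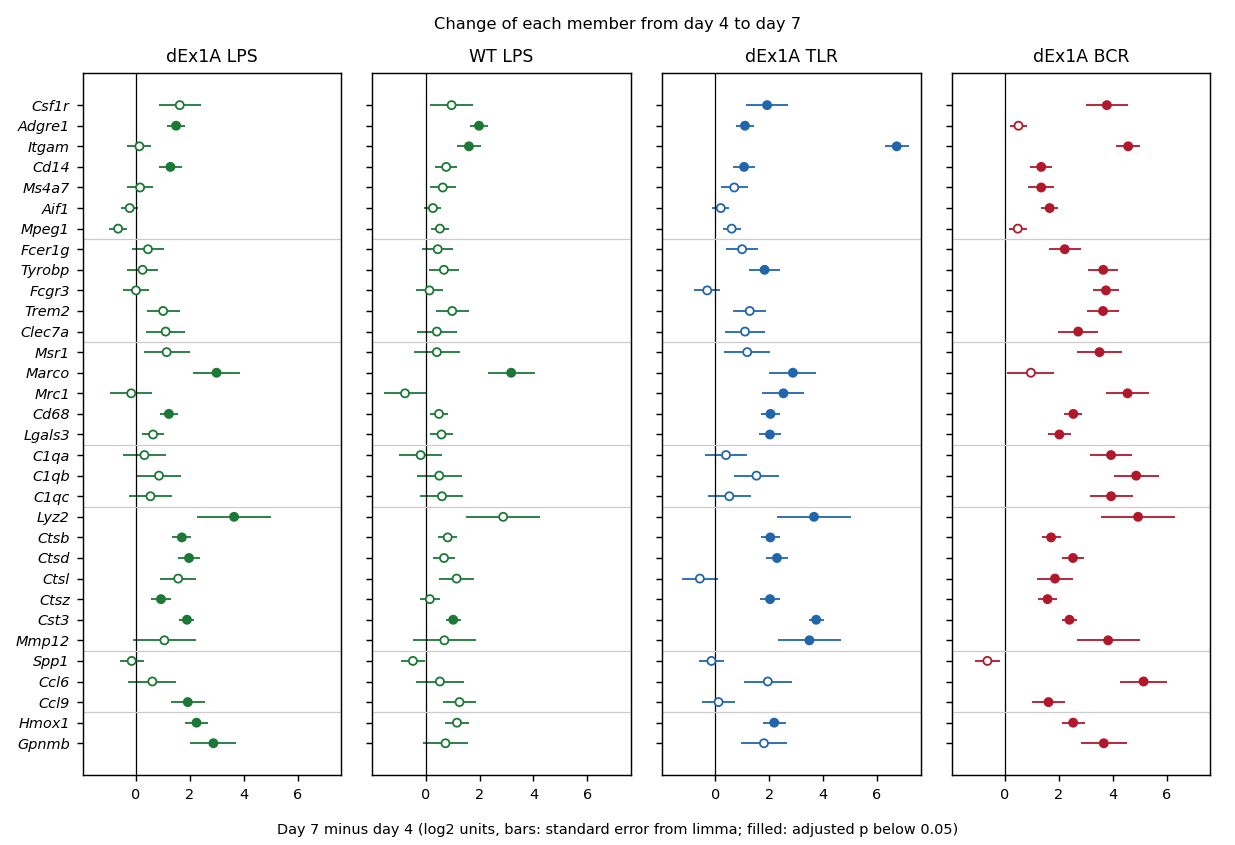
Difference of each member between day 7 and day 4 (log2 units, day 7 minus day 4) in 4 cultures, with the limma standard error as bars and filled circles where the adjusted p was below 0.05. Filled circles number 12 in dEx1A LPS, 4 in wild type LPS, 16 in dEx1A TLR and 28 in dEx1A BCR, and Cst3 is the gene filled in all 4.

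Across these 4 steps Cst3 was called in 4, 10 members in 3, 7 in 2, 12 in 1, and Mpeg1 and Spp1 in none. The difference between the steps was itself tested with interaction terms, added after the data had been seen. Between the dEx1A and wild type LPS steps 0 of 32 members differed (limma, 4 at an unadjusted p below 0.05; 5.48% of genes differed), and no other tool was run for that term. Between the dEx1A BCR and TLR steps 6 of 32 differed, where 15.8% of genes did, and between the dEx1A LPS and TLR steps 3 of 32, where 28.4% did. Fcgr3 stood out in the first of these with 4.04 ± 0.70 (SE; limma adjusted p = 9.39e-05), a rise of 3.74 in BCR against a value of -0.30 in TLR culture.

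Genotype was compared within the LPS culture, where sex and age match. At day 4, 3 of 32 members were higher and 3 lower in dEx1A libraries, where 12.6% of genes were higher and 11.8% lower (limma). Both counts were near or under those of all genes. Itgam was 10.20, 8.84 and 10.24 in dEx1A libraries and 7.60, 6.83 and 7.52 in wild type libraries, a difference of 2.44 ± 0.45 (SE; limma adjusted p = 0.000141). Mpeg1 was 11.95, 11.50 and 11.49 in dEx1A and 9.98, 9.86 and 9.94 in wild type libraries, a difference of 1.72 ± 0.34 (SE; limma adjusted p = 0.00032). Ctsd was 9.45, 9.82 and 10.30 in dEx1A and 11.25, 11.18 and 11.42 in wild type libraries, a difference of -1.43 ± 0.42 (SE; limma adjusted p = 0.0133). Each of these separated without overlap. Cst3 fell by 1.26 ± 0.28 (adjusted p = 0.00116 by limma), Cd68 by 1.02, and Aif1 was higher by 0.88. A fit on these 6 libraries alone called 11 members in place of 6, and without dEx1A replicate 1 the count was 3 and Ctsd was no longer called (-1.22, limma adjusted p = 0.085). The defining members gave 0 of the 6 calls, and C1q and Csf1r were near the floor in both genotypes. At day 7, 0 members were called by limma, 3 at an unadjusted p below 0.05, and 0 with voom, where 3.30% of genes were higher and 3.78% lower.

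Further macrophage and lysosomal genes, from lists also drawn up with earlier results known, were read beside the members. Of 40 further macrophage genes, 25 rose and 5 fell in the dEx1A BCR step, where 26.2% of all genes rose and 27.7% fell. In the dEx1A TLR step 14 rose and 2 fell, where 29.3% rose and 32.8% fell, in the LPS step 10 and 2, where 16.3% rose and 17.8% fell, and in the wild type LPS step 7 and 1, where 4.75% rose and 3.65% fell. At day 4 against day 0, 3 rose and 17 fell in the TLR culture, 5 and 13 in the BCR culture and 4 and 20 in the LPS culture, where 23.5%, 24.5% and 30.8% of all genes fell and 24.9%, 26.1% and 27.3% rose. Lpl, lipoprotein lipase, was 11.80, 11.56 and 11.59 at day 4 and 15.55, 15.79 and 12.95 at day 10 of the BCR culture, with 5.77, 5.91 and 6.13 at day 0. Cd36, a lipid scavenger receptor, reached 14.61, 15.12 and 12.69 and Lilrb4a 14.04, 14.57 and 11.98 at BCR day 10. Of 28 further lysosomal genes, 18 rose and 4 fell in the dEx1A BCR step, 17 and 1 in the TLR step, 14 and 0 in the LPS step and 10 and 0 in the wild type LPS step. Psap, prosaposin, was 17.46, 16.87 and 14.40 at BCR day 10 and 13.36, 13.17 and 13.49 at day 0. Chil3 was 13.61, 14.42 and 4.31 and Ccl2 12.44, 12.78 and 9.21 at BCR day 10, so Chil3 was near the floor in replicate 3 and Ccl2 was not.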

How the data were processed

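Total RNA was sequenced as single reads after TruSeq Stranded Total RNA preparation, per the labels' protocols. The authors deposited log2 values from the variance-stabilising transformation in 2 tables of 28196 genes, 1 with 21 libraries of 7 groups and 1 with 39 libraries of 13 groups, 15 libraries being identical in both. The submitters' processing notes list DESeq2 1.22.2, R 3.5.1, STAR 2.6.0c, RSEM 1.3.0, Trim Galore 0.6.0 and FastQC 0.11.8, without their roles. Strand setting and annotation were not stated. The step from counts to log2 values compresses differences between low counts.

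Every gene was tested with limma 3.58.1 (R 4.3.3) on group means over all groups of a table, with a trended empirical Bayes spread, two-sided, and Benjamini-Hochberg adjustment over all genes at 0.05. Genes had to lie 1 log2 unit above the floor in 3 libraries, which left 19497 and 20331. Comparisons with day 0 in the TLR and BCR cultures used the first table and the others the second. Reads were recovered by inverting the transformation, with 90.9% to 100.0% of values under 20 reads coming out whole within 0.1 read, and served for shares, sums and voom. Normalised reads are reads divided by the library's size factor. Shares have 95% Wilson intervals. Analysis used Python 3.11.15, pandas 2.3.3, numpy 2.4.6, statsmodels 0.14.6 and matplotlib 3.10.9. No 2 libraries of a group agreed within sampling noise.

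The members, their roles and the other lists were chosen with earlier results of these data known. The planned tests of wild type TLR and BCR day 4 against day 0 are not reported as tests of members, since their day 4 libraries entered that choice. Values per library are given for the 2 members of each role with the highest mean over the 6 wild type day 10 libraries, for up to 3 called members with the largest difference in each tested comparison, and for up to 3 genes of other lists. Other genes given with values were chosen after their values had been seen. Promoter windows come from RefSeq for GRCm38.p6. In the dEx1A LPS step libraries of the same replicate number correlated weakly in their deviations (r = 0.29, 0.23 and 0.17). In the other comparisons r lay between -0.37 and 0.33, so whether the numbers pair libraries is not known. A fit of that step with replicate number as a block called the same number of members, 12. Alternatives were another set of groups in the fit, no filter, voom, centring, GC correction, the replicate block and each library left out.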

Additional observations from a re-analysis of the deposited data

Results flagged for a closer look

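For 7 members the step between days 4 and 7 differed between dEx1A cultures by limma's interaction term, a test added after the data had been seen, with 3 libraries in each group. For BCR against TLR 6 of 32 members differed, where 15.8% of all genes did, and for LPS against TLR 3 of 32, where 28.4% did, so the counts were near or under those of all genes. Against the TLR step, the BCR step was larger for Fcgr3 by 4.04 ± 0.70 (SE; adjusted p = 9.39e-05), for C1qa by 3.53 ± 1.12 (adjusted p = 0.0286), for C1qc by 3.41 ± 1.13 (adjusted p = 0.036) and for Aif1 by 1.45 ± 0.45 (adjusted p = 0.0235). It was smaller for Itgam, by -2.16 ± 0.63 (limma adjusted p = 0.0175), and for Cst3, by -1.35 ± 0.39 (limma adjusted p = 0.017). Against the TLR step, the LPS step was smaller for Itgam by -6.60 ± 0.63 (limma adjusted p = 8.5e-09), for Cst3 by -1.85 ± 0.39 (limma adjusted p = 0.00102) and for Mpeg1 by -1.27 ± 0.48 (limma adjusted p = 0.0462). Itgam and Cst3 thus differed in both comparisons, each with its larger step in the TLR culture. In BCR day 7 replicate 2 C1qa had no read and C1qc was 3.53, so the terms for these chains rest on replicates 1 and 3.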

How the results depend on the processing

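Over the 137 calls of single members, with 13 alternatives each, 1556 values kept their direction and side of the threshold, 225 kept the direction and lost the call, and 0 reversed. Over the 183 tests of members that were not called, 92 values under alternatives gained a call in the same direction and 138 changed sign. Both tallies include wild type TLR and BCR day 4 against day 0, which gave 15 and 16 of the 137 calls. Those 2 comparisons share libraries with the choice of members. Their part in the tallies and their counts below are given for the dependence on settings only. A fit on the compared groups alone moved the counts of called members most. It gave 27 in place of 15 for wild type TLR day 4 against day 0 and 26 in place of 16 for BCR. The wild type LPS step had 7 in place of 4, and genotype at LPS day 4 had 11 in place of 6. Counts fell to 12 in place of 28 for the dEx1A BCR step and to 3 in place of 22 for dEx1A BCR against TLR at day 7. Those fits hold fewer libraries, and the cause of these moves was not tested. With voom the wild type LPS step had 2 calls and dEx1A BCR against TLR had 13. Leaving out 1 library at a time gave 12 to 13 calls for TLR day 4, 12 to 14 for BCR day 4, 16 to 18 for LPS day 4, 2 to 4 for the wild type LPS step, 6 to 12, 13 to 16 and 23 to 29 for the dEx1A LPS, TLR and BCR steps, 3 to 5 for genotype at LPS day 4, 0 at day 7 and 12 to 26 for dEx1A BCR against TLR. With the replicate block wild type TLR day 4 had 16 calls in place of 15, and no other count moved by over 1.5 times. Centring each library on its median moved the median of all genes by -0.18, -0.35 and -0.33 in the dEx1A LPS, TLR and BCR steps and by 0.17 in the LPS day 4 genotype comparison, and left 11, 14, 26 and 6 calls. GC correction left 12, 19, 28 and 8. The mean member share at BCR day 10 was 2.58%, 1.92% to 3.67% with 1 library left out, and 0.392% without replicates 1 and 2, an alternative added after the data had been seen; at TLR day 10 it was 0.114% to 0.455% with 1 library left out and 0.824% without immunoglobulin genes, and at dEx1A BCR day 7 0.248% to 0.601%. Calls on genes under 20 reads are limited by depth.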
